A study of Mus musculus with 48 samples.

Results

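Avp, which encodes the precursor of vasopressin, and Oxt, which encodes the precursor of oxytocin, were followed in 48 libraries of mouse hypothalamus RNA. Both genes were chosen by name, as 2 of the 21558 genes in the table, with earlier results of these data known. The libraries form 8 series of 6, and within a series the library titles carry the numbers 1, 5, 9, 13, 17 and 21, for which the labels give no unit. Here the numbers are read as hours of a 24-hour day, which is an assumption. Each library holds hypothalamus tissue of 3 male mice, pooled before sequencing. The strain is given as C57BL/6 in the sample labels and as C57BL/6N in the design text, and no mutant or transgene is named.

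Of the 8 series, 2 early free-moving series and 2 early hindlimb-unloaded series came from animals labelled 2 months old, kept at 10 dBA and normal air pressure. In hindlimb unloading a mouse is held so that its hind legs bear no weight, a ground model of weightlessness. Because the 2 early series of a kind carry the same labels, they are called a and b here. The other 4 series are labelled late and 3 months old, and the design text gives 2 months for all 144 mice. A late quiet free-moving and a late quiet unloaded series were kept at 10 dBA and normal air pressure. A late noise free-moving and a late noise unloaded series were kept at 85 dBA and 0.9 atmospheres, so noise and low pressure cannot be told apart, and "noise" stands for both below. Age, period and any difference in handling between early and late animals cannot be told apart either, and each late condition is a single series. The labels do not say how the pools of a series were kept, so p-values measure the spread between these pools.

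Vasopressin and oxytocin are made by large neurons of the supraoptic and paraventricular nuclei, which send axons to the posterior pituitary and release the hormones into the blood. Vasopressin makes the kidney retain water, constricts vessels and acts on the corticotrophs of the anterior pituitary, and oxytocin drives milk ejection and uterine contraction and acts in social behaviour. Vasopressin is also made by neurons of the suprachiasmatic nucleus, the body clock, where the gene is known to be read out with a daily rhythm. Each hormone is cut from a precursor that also holds a neurophysin, its carrier protein.

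In GRCm38 with the GENCODE M21 annotation, the genes lie side by side, tail to tail. Oxt (ENSMUSG00000027301.7) spans chr2:130576173-130577054 on the plus strand, with 3 exons of 537 bases in all. Avp (ENSMUSG00000037727.6) spans chr2:130580620-130582554 on the minus strand, with 3 exons of 577 bases in all. The gap between them is 3565 bases, and the annotation places 0 genes in it. The sources used here do not give the build behind the deposited table, so these positions describe the genes and were not used to make the values.

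The hormones themselves are 9 residues long, and their codons show how close the genes are. The 27 bases below lie in exon 1 of each gene, at chr2:130582446-130582472 on the minus strand for Avp and at chr2:130576267-130576293 on the plus strand for Oxt, and capitals mark the 5 bases that differ.
Avp hormone codons: tgctacTtccagaactgcccAAGAggc
Oxt hormone codons: tgctacAtccagaactgcccCCTGggc
These changes alter 2 of the 9 residues, the third and the eighth.

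Farther along, in the neurophysin-coding part, the transcripts share a run of 127 identical bases that crosses from exon 1 into exon 2 (from chr2:130581133-130582411 in Avp and chr2:130576328-130576715 in Oxt, both spans including an intron). It is printed because a read that falls wholly inside it cannot be assigned to either gene.
Shared run: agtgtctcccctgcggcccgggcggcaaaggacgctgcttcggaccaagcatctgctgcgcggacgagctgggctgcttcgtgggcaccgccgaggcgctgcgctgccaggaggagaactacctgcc
Of all 50-base windows of the transcript, 14.8% in Avp and 16.0% in Oxt also occur in the other gene. For 100-base windows the shares are 5.86% and 6.39%, and for 150-base windows both are 0. Read length and the handling of shared reads were not given in the sources used here, so the RPKM values of both genes are uncertain to that extent.

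The 250 bases before each start (RefSeq, GRCm38.p6) differ between the genes. They are shown because the daily course and the joint movement of the genes are described below. Capitals mark the matches to CACGTG, to a loose AP-1 pattern and to the nuclear receptor half-site described after them.
Avp promoter, chr2:130582589-130582838, minus strand: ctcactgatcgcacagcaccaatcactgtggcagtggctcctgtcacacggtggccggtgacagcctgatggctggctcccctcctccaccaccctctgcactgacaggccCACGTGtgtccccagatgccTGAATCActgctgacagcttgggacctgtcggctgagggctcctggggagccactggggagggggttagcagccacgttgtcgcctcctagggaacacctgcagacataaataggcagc
Oxt promoter, chr2:130575919-130576168, plus strand: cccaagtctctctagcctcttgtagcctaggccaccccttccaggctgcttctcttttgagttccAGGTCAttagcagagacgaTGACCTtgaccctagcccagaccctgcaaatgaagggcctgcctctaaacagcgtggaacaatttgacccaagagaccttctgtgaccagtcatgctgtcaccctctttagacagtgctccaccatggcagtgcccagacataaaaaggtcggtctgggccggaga

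Both strands were searched for 9 short motifs. The Avp window holds 1 match to CACGTG, the E-box read by clock proteins, 139 to 134 bases before the start, and 6.02% of 32851 promoters of this length hold that motif. It also holds 1 match to TGANTCA, a loose AP-1 pattern with any base in the middle, 119 to 113 bases before the start. This pattern is in 6.75% of promoters. The matched letters are TGAATCA, and the usual AP-1 site has C or G in the middle, so the match is to the loose pattern only. The Oxt window holds neither of these. It holds 2 matches to the nuclear receptor half-site AGGTCA, one on each strand, and 14.0% of promoters hold at least one. The looser E-box CANNTG, which includes CACGTG, has 3 matches in the Avp window and 1 in the Oxt window, marked only where it is CACGTG, and 66.2% of promoters hold it. Neither window matched the TATA box TATAAA, the cAMP response element TGACGTCA or its half-site TGACG, the D-box TTATGNAA or the glucocorticoid receptor half-site TGTTCT. A match describes letters in a window and shows no binding.

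Levels are given as RPKM, reads scaled to transcript length and to library size, which allows genes of different length to be compared. Recovered from the steps between low values, library depth was 28.3 M to 55.3 M reads, with a median of 38.1 M. The values then correspond to about 12791 to 151934 reads for Avp and 8866 to 62050 for Oxt, so counting error is at most 0.884% and 1.06% of a value. The share of RPKM in the 13 mitochondrially encoded genes ran from 8.95% to 62.4% and was lowest in the late quiet series. All 7 hypothalamic markers on the marker list passed the level filter, and their summed level was 342 to 1309 RPKM. The highest sum was in a library of early unloaded a, where Pomc, a marker on this list, reached 362 RPKM against a series mean of 90.6 RPKM. By median the sum was highest in early unloaded b, at 797 RPKM, against 694 RPKM in early unloaded a. All 6 thalamic, 7 striatal and 7 blood markers passed the filter too, so passing it does not identify the tissue. In 1 library, number 9 of early unloaded a, the anterior pituitary markers summed to 12134 RPKM, against at most 30.9 RPKM in every other series. Without that library each Avp and Oxt difference between series kept its direction, and 1 call, named below, was lost.

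Avp was among the most abundant transcripts of the tissue. It was the highest gene outside the mitochondrial genome in 7 of 48 libraries and among the 10 highest in 44. Oxt was among the 10 highest in 31 libraries and never the highest. Avp ran from 610.5 RPKM in late quiet free-moving number 9 to 7580.25 RPKM in early free-moving a number 1, a 12.4-fold range with a median of 3198 RPKM. Oxt ran from 466 RPKM in late quiet free-moving number 13 to 3227 RPKM in early free-moving a number 1, a 6.92-fold range with a median of 1633 RPKM. Avp was above Oxt in 48 of 48 libraries.

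**Figure D1:**
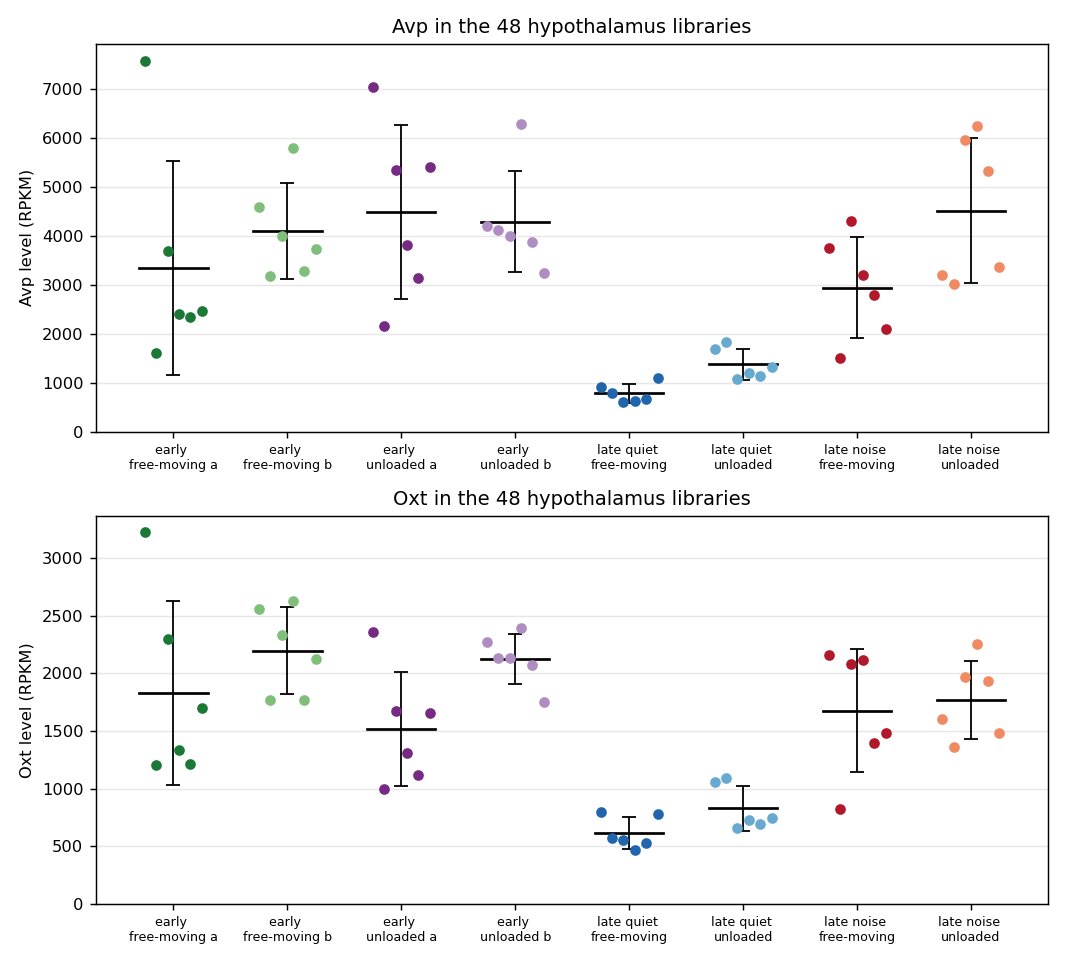
Avp (top) and Oxt (bottom) in RPKM on linear axes, 1 point per library, ordered by title number within each series; the wide line is the series mean and the bars are ± SD (n = 6). The late quiet series lie lowest for both genes, and early free-moving a number 1 is the highest library at 7580.25 and 3227 RPKM.

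In the early free-moving animals Avp had its lowest, median and highest values at 1596, 2427 and 7580.25 RPKM in series a and at 3173, 3862 and 5811 RPKM in series b. In the early unloaded animals they were 2154, 4585 and 7047 RPKM in series a and 3248, 4066 and 6294 RPKM in series b. The 4 early series overlapped widely, and series a was the more scattered of each pair. In the late quiet animals Avp was 610.5, 719.9 and 1095 RPKM when free-moving and 1080.3, 1255 and 1826 RPKM when unloaded. In the late noise animals it was 1509, 2999 and 4301 RPKM when free-moving and 3028, 4349.7 and 6249 RPKM when unloaded. Every late quiet free-moving library was below every library of the 4 early and 2 noise series.

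Oxt followed the same layout with a smaller range. Its lowest, median and highest values were 1205, 1515 and 3227 RPKM in early free-moving a and 1765, 2228 and 2625 RPKM in early free-moving b. Those of early unloaded a were 994, 1486 and 2358 RPKM, and those of early unloaded b 1756, 2131 and 2396 RPKM. Late quiet free-moving animals had 466, 561 and 794 RPKM, and late quiet unloaded animals 660.2, 735 and 1091 RPKM. Late noise free-moving animals had 822, 1781 and 2156 RPKM, and late noise unloaded animals 1365, 1769.8 and 2256 RPKM. For Oxt the highest library of each late quiet series was below the median of each early and noise series.

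By mean, Avp rose in the order late quiet free-moving (782 ± 193 RPKM, SD, n = 6), late quiet unloaded (1373 ± 310), late noise free-moving (2945 ± 1035), early free-moving a (3344 ± 2183), early free-moving b (4096 ± 986), early unloaded b (4293 ± 1038), early unloaded a (4488 ± 1782) and late noise unloaded (4522 ± 1483). For Oxt the order was late quiet free-moving (615 ± 137 RPKM), late quiet unloaded (828 ± 194), early unloaded a (1519 ± 496), late noise free-moving (1676 ± 535), late noise unloaded (1768 ± 340.2), early free-moving a (1829.8 ± 800.4), early unloaded b (2127 ± 216) and early free-moving b (2197 ± 376). In both orders only the lowest 2 steps were larger than the larger SD of the neighbours, so the 6 upper series were not separated from their neighbours. The places of the genes differed: early unloaded a was second highest for Avp and sixth highest for Oxt.

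The late quiet and late noise animals were compared to see whether noise with low pressure goes with a change in the hypothalamus. In free-moving animals both genes were higher with noise, and no noise library overlapped a quiet one for either gene. Avp was 3.64-fold higher (log2 difference 1.86 ± 0.24 SE, limma adjusted p = 8.3e-08), the 4th highest of 13685 genes tested. Oxt was 2.64-fold higher (1.40 ± 0.18, limma adjusted p = 6.7e-08). Each was higher in 6 of 6 title numbers, while 57.6% of all tested genes were called in this comparison, 21.2% higher and 36.4% lower. The median gene differed by −0.15.

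In unloaded animals noise gave the same direction. Avp was 3.21-fold higher (1.68 ± 0.24, limma adjusted p = 0.00020) and Oxt 2.15-fold higher (1.10 ± 0.18, limma adjusted p = 0.00060), each in 6 of 6 title numbers and with no overlap between the series. Here 52.3% of genes were called, 6.75% higher and 45.6% lower, and the median gene was at −0.28. When the mitochondrial share entered the fit as a covariate, the differences were 1.40 (limma adjusted p = 0.066) and 0.91 (limma adjusted p = 0.069) and no longer passed, and limma then called 0 genes of the whole table (2286 at an unadjusted p under 0.05). After quantile normalization, which gives all libraries the same distribution, Avp differed by 0.86 (limma adjusted p = 0.012).

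With noise and unloading together against neither, Avp reached its largest difference of the 12 comparisons, 5.65-fold (2.50 ± 0.24, limma adjusted p = 2.6e-10), the 2nd highest of 13685 genes. Oxt was 2.89-fold higher (1.53 ± 0.18, limma adjusted p = 1.4e-08). In this comparison 65% of genes were called and 18.1% were called higher, with the median gene at −0.27. The difference of the noise effects between unloaded and free-moving animals was −0.18 ± 0.35 for Avp (limma adjusted p = 0.85) and −0.30 ± 0.26 for Oxt (limma adjusted p = 0.60), and 4.38% of genes were called. These 3 noise comparisons share libraries and are not independent of each other.

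Late and early animals in quiet were compared next. Both genes were lower in the late free-moving animals, in 6 of 6 title numbers and with no overlap. Avp was 4.47-fold lower (−2.16 ± 0.21, limma adjusted p = 1.9e-11) and Oxt 3.19-fold lower (−1.67 ± 0.16, limma adjusted p = 8.1e-12). In this comparison 78.5% of genes were called, 60.5% higher and 18% lower in the late animals. The median gene was higher by 0.43. The late quiet libraries are the reference of the noise comparisons too, so the high values with noise and the low values in late against early rest on the same 6 libraries of each activity.

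In unloaded animals Avp was 3.11-fold lower late than early (−1.64 ± 0.21, limma adjusted p = 2.4e-06), the 3rd lowest of 13685 genes. Oxt was 2.16-fold lower (−1.11 ± 0.16, limma adjusted p = 1.4e-05). Both were lower in 6 of 6 title numbers, without overlap for Avp and with overlap for Oxt. Of all genes 47.3% were called and 8.53% were called lower, and the median gene was at 0.21.

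Short transcripts moved with both genes in these comparisons. The 312 tested genes with under 1000 exonic bases had a median of 0.66 with noise in free-moving animals, against −0.17 for the 13208 longer genes. In late against early free-moving animals the medians were −0.69 and 0.44. Among the short genes Avp ranked 3rd highest with noise and 8th lowest in late against early free-moving animals, and Oxt ranked 21st highest and 26th lowest. With a length trend removed from each library the noise differences in free-moving animals were 1.03 for Avp (limma adjusted p = 1.2e-05) and 0.53 for Oxt (limma adjusted p = 0.00033), in the same direction and smaller. In late against early free-moving animals they became −1.25 (limma adjusted p = 7.8e-09) and −0.71 (limma adjusted p = 1.6e-07). In noise and unloading against neither Oxt went from 1.53 to 0.68, and it was 0.64 with noise in unloaded animals and −0.65 in late against early unloaded animals, all still called by limma.

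Other tissue markers moved in the same comparisons. The thalamic markers, 6 genes, summed to 23.1 to 117 RPKM in late quiet free-moving and 23.3 to 80.4 RPKM in late quiet unloaded libraries, against 13.4 to 36.2 RPKM in the other 6 series. All 6 were called higher in late against early free-moving animals, where 60.5% of all genes were, and 5 of 6 lower with noise in free-moving animals, where 36.4% were. The blood markers, 7 genes, summed to 628 to 1038 RPKM in late quiet free-moving libraries and 529 to 6255 RPKM elsewhere. Like Avp and Oxt, 6 of 7 were called lower in late against early free-moving animals (median −1.23; 18% of all genes were called lower) and 5 of 7 higher with noise in free-moving animals (median 1.01; 21.2% of all genes were called higher). With noise in unloaded animals 2 of 7 were called higher (median 0.65), against 6.75% of all genes. Of 5 tested pituitary markers 3 were called lower in late against early free-moving animals (18% of all genes) and 1 higher with noise in free-moving animals (21.2%). The choroid plexus markers, 6 genes, had medians of 12.2 and 15.1 RPKM in the late quiet free-moving and unloaded series, with a highest library of 387 and 279.6 RPKM. No marker of these lists was at 0 in all 6 libraries of a series. The part of the tissues behind these markers in the Avp and Oxt differences was not tested. In bulk tissue, fewer hormone neurons and less hormone RNA per neuron cannot be told apart.

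**Figure D2:**
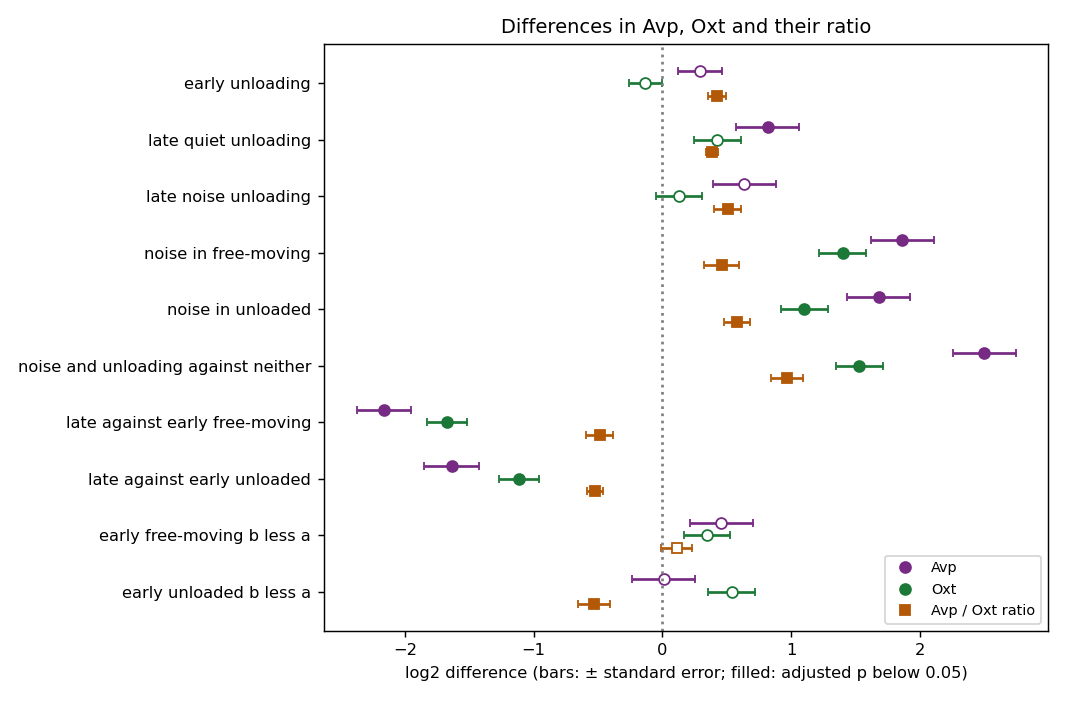
Differences in log2 units for Avp, Oxt and their ratio in 10 comparisons; bars are ± SE and filled symbols passed an adjusted p of 0.05 (limma for the genes, permutation for the ratio). The ratio moved up in all 3 noise comparisons and in all 3 unloading comparisons, from 0.39 to 0.97.

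Unloading was compared with free movement within each setting. In late quiet animals Avp was higher in 6 of 6 title numbers and 1.76-fold higher on average (0.82 ± 0.24, limma adjusted p = 0.022), the 51st highest of 13685 genes, in a comparison where 12.8% of genes were called and 9.38% higher. Oxt was at 0.43 ± 0.18 (limma adjusted p = 0.11), higher in 5 of 6. The Avp call did not hold without number 5, 13 or 17 (limma adjusted p = 0.067, 0.075 and 0.075). It was also lost with the length trend removed (0.44, limma adjusted p = 0.089). In late noise animals neither gene passed, at 0.64 ± 0.24 for Avp (limma adjusted p = 0.75) and 0.13 ± 0.18 for Oxt (limma adjusted p = 0.83), and 0.0146% of genes were called.

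In early animals neither gene passed with unloading, at 0.29 ± 0.17 for Avp (limma adjusted p = 0.14) and −0.13 ± 0.13 for Oxt (limma adjusted p = 0.38), in a comparison that called 52.8% of all genes and where the median gene was at 0.23. The Avp value is sensitive to 1 library: without early free-moving a number 1 it was 0.41 (limma adjusted p = 0.034). The Oxt value depended on which early series were paired, from −0.57 for unloaded a against free-moving b (limma adjusted p = 0.0078) to 0.31 for unloaded b against free-moving a (limma adjusted p = 0.40). The unloading effect of late quiet animals exceeded that of early animals by 0.56 ± 0.22 for Oxt (limma adjusted p = 0.048) and by 0.52 ± 0.30 for Avp (limma adjusted p = 0.16), where 33.5% of genes were called. The Oxt value passed in 6 of 17 alternatives, and without number 9 of early unloaded a it was 0.57 (limma adjusted p = 0.054).

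With all libraries in the fit, neither gene passed between early series of the same label. Between the free-moving series b and a the differences were 0.46 ± 0.24 for Avp (limma adjusted p = 0.37) and 0.35 ± 0.18 for Oxt (limma adjusted p = 0.36), with 0.256% of genes called. Between the unloaded series they were 0.01 ± 0.24 for Avp (limma adjusted p = 0.98) and 0.54 ± 0.18 for Oxt (limma adjusted p = 0.085), with 0.833% called. Without number 1 the Oxt difference between the unloaded series was 0.66 and passed (limma adjusted p = 0.012).

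The ratio of Avp to Oxt within a library does not depend on library scaling. It ran from 1.10 in late quiet free-moving number 9 to 3.26 in early unloaded a number 21, with a median of 1.84. Its mean was 1.27 ± 0.125 (SD, n = 6) in late quiet free-moving animals, 1.66 ± 0.0596 in late quiet unloaded animals, 1.74 ± 0.369 in early free-moving a, 1.76 ± 0.26 in late noise free-moving animals and 1.85 ± 0.182 in early free-moving b. It was 2.00 ± 0.307 in early unloaded b, 2.51 ± 0.4 in late noise unloaded animals and 2.89 ± 0.393 in early unloaded a. The lowest step, from late quiet free-moving to late quiet unloaded animals, had no overlap, and the step from early unloaded b to late noise unloaded animals exceeded the larger SD. No other neighbours in this order were separated by more than the larger SD.

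**Figure D3:**
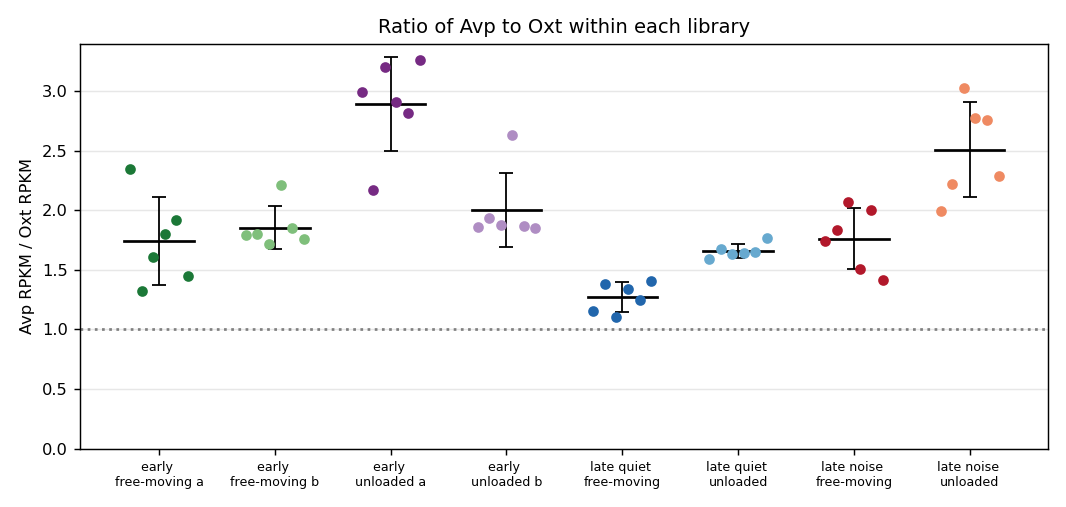
Avp RPKM divided by Oxt RPKM on a linear axis, 1 point per library, with the mean (wide line) and ± SD (n = 6) of each series; the dotted line marks equal levels. The 48 libraries lie above that line, between 1.10 and 3.26, and late quiet unloaded libraries have the narrowest spread.

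With noise the ratio was higher by 0.46 log2 units in free-moving animals, by 0.58 in unloaded animals and by 0.97 for noise with unloading against neither. In each of these 3 comparisons the groups did not overlap (exact permutation p = 0.0022, the smallest that 6 against 6 allows, adjusted p = 0.0037 over 12 comparisons). With unloading it was higher by 0.39 in late quiet animals, again without overlap (exact permutation p = 0.0022, adjusted p = 0.0037), and by 0.51 in late noise animals (exact permutation p = 0.0065, adjusted p = 0.0087). Late animals had a lower ratio than early ones, by −0.49 when free-moving (permutation p = 0.00054, adjusted p = 0.0032) and by −0.52 when unloaded (permutation p = 0.00011, adjusted p = 0.0013). All of these signs held in 6 of 6 title numbers. The early groups pool series a and b, and the unloaded pair differed in ratio, as given below. The late quiet unloaded mean was 1.66, against 2.00 in early unloaded b and 2.89 in early unloaded a, and late and early unloaded libraries did not overlap. The p for unloaded animals treats the 2 unlike early series as 1 group.

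Among the early animals the ratio also differed between series of the same label. Early unloading gave 0.42 (permutation p = 0.0022, adjusted p = 0.0037), but unloaded b alone gave 0.22 against free-moving a (exact permutation p = 0.17) and 0.10 against free-moving b (exact permutation p = 0.39). Unloaded a gave 0.74 and 0.63 against the same series (exact permutation p = 0.0043 for each). Unloaded b had a ratio lower than unloaded a by −0.53 (exact permutation p = 0.0043, adjusted p = 0.0065), and these 2 series have the same labels. In size that gap lies between the differences with noise in free-moving and in unloaded animals. The free-moving pair differed by 0.11 (exact permutation p = 0.43, adjusted p = 0.47). Neither interaction of unloading, with noise (0.12, exact sign-flip permutation p = 0.375) or with period (−0.04, exact p = 0.62), passed, where the smallest p that 6 numbers allow is 0.031.

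Within series the genes varied together. Over the 48 libraries the deviations of Avp and Oxt from their series means had Pearson r 0.927 and Spearman rho 0.890 (permutation p = 1e-05 for both, the smallest that 100000 permutations can give, adjusted p = 4e-05 over 4 relations). Without the 2 libraries farthest from the median r was 0.913, and within single series of 6 it lay between 0.863 and 0.987. Both genes share each library's scaling, which can raise r. It was 0.926 with mitochondrial genes removed and rescaled, and 0.915 with title number means removed (permutation p = 1e-05 for each). After quantile normalization it was 0.665 (permutation p = 3e-05). That step leaves genes this high little more than their rank in a library. Oxt at 1660 RPKM and at 2625 RPKM then had the same value, 10.7605 log2 units. The part of scaling in r was therefore not tested by it. Neither gene passed in its relation with the mitochondrial share, at r 0.398 for Avp (permutation p = 0.030, adjusted p = 0.061, rho 0.313) and 0.337 for Oxt (permutation p = 0.049, adjusted p = 0.065, rho 0.175), and the signs differed between series. The ratio did not pass either (r 0.335, permutation p = 0.077, adjusted p = 0.077, rho 0.331), but within the late quiet series its r with the mitochondrial share was 0.795 in free-moving and 0.955 in unloaded animals, against −0.285 to 0.704 in the other series (n = 6 each, as a description).

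**Figure D4:**
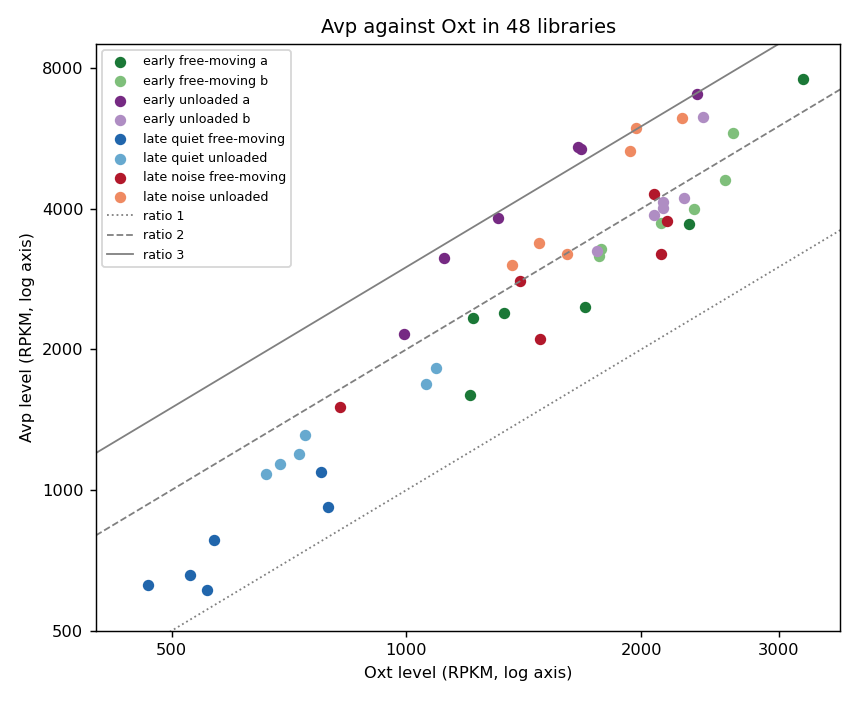
Avp against Oxt in the 48 libraries, both in RPKM on log axes, coloured by series, with grey lines at ratios of 1, 2 and 3. Libraries of each series run along the lines, early unloaded a lies highest for its Oxt level and late quiet free-moving lies lowest.

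By likeness over the 48 libraries, among 12549 genes of at least 1 RPKM, the gene nearest to Avp was the appetite peptide gene Npy (r 0.955), followed by Oxt (0.941) and Agrp (0.937), and the apolipoprotein gene Apoc1 (0.920) was also near. In deviations from series means the nearest to Avp were Oxt (0.927), Agrp (0.907), Npy (0.882), Rpl37 (0.878) and Rps27 (0.875). For Oxt the nearest over all libraries were the ribosomal protein genes Rpl24 (r 0.953), Rps25 (0.952), Rpl32 (0.952) and Rpl27a (0.952), and Avp was 20th. In deviations they were Avp (0.927), Rpl27a (0.869), Agrp (0.869), Npy (0.861) and Rsph9 (0.857). All of these share library scaling. Agrp, made in the arcuate nucleus, was higher with noise and unloading against neither by 3.46 ± 0.32 (limma adjusted p = 6.3e-11) and lower in late against early free-moving animals by −3.03 ± 0.28 (limma adjusted p = 4.3e-12). Agrp is 1 of the 7 hypothalamic markers, which did not move together. Of the 7, 1 was called higher and 1 lower in the first comparison (median 0.04, all genes −0.27), where 65% of all genes were called. Late against early free-moving, 2 were called higher and 2 lower (median 0.12, all genes 0.43), where 60.5% and 18% of all genes were.

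Within a series Avp was noisier than most genes. Its residual SD was 0.447 log2 units, at the 96.7th percentile of tested genes, and that of Oxt was 0.324, at the 80.5th, against a median of 0.248.

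The daily course was asked of both genes, because vasopressin of the clock nucleus is known for one. The libraries do not separate that nucleus from the other vasopressin neurons, so its own course was not tested. A 24-unit wave fitted across all series had an amplitude of 0.01 log2 units for Avp (limma adjusted p = 0.998) and 0.08 for Oxt (limma adjusted p = 0.79), in a test that called 1.76% of genes. With the 6 numbers taken as a factor the limma adjusted p was 0.21 for Avp and 0.11 for Oxt, where 0.877% of genes were called. A wave differing between series was called by limma in 0 of 13685 genes (1641 at an unadjusted p under 0.05), and for Avp and Oxt the limma adjusted p was 0.74 and 0.78. For the wave fitted across all series, 10 of 15 clock genes passed. Among them were Ciart (amplitude 0.44, limma adjusted p = 1.8e-06), Arntl (0.28, limma adjusted p = 2.2e-05) and Dbp (0.60, limma adjusted p = 2.9e-05). Of 8 other marker genes of the suprachiasmatic nucleus 0 passed for that wave in limma (2 at an unadjusted p under 0.05), with Vip, a peptide of that nucleus, at 0.24 (limma adjusted p = 0.065).

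**Figure D5:**
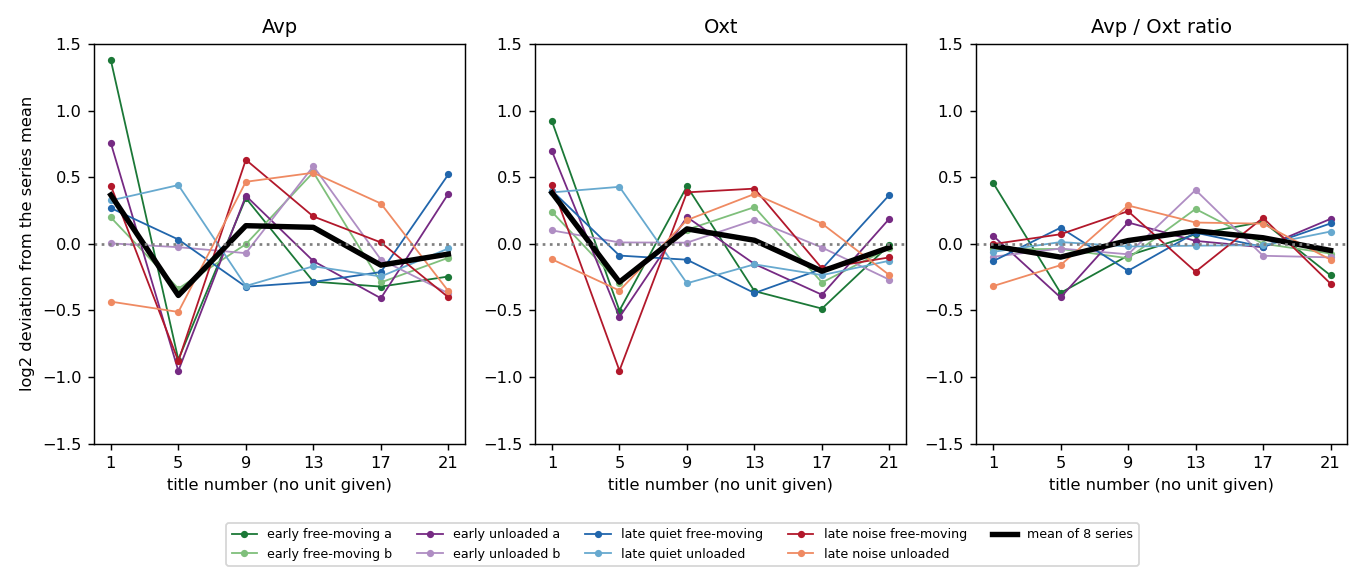
Log2 deviation of Avp, Oxt and their ratio from each series mean against the title number, 1 line per series with the mean of the 8 series in black. Number 1 lies high and number 5 low for both genes on average, and the ratio stays nearer to 0.

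The average course was still uneven. At number 1 Avp was 0.37 ± 0.53 log2 units above the series mean (SD over 8 series) and Oxt 0.38 ± 0.32, each above in 7 of 8 series. At number 5 Avp was at −0.39 ± 0.51 and Oxt at −0.29 ± 0.41, below in 6 of 8 series, and number 5 was the lowest of its series in 5 of 8 for both genes. At number 17 Oxt was below its series mean in 7 of 8 series (−0.21 ± 0.20) and Avp in 6 of 8 (−0.16 ± 0.23). Numbers 9, 13 and 21 had average deviations between −0.08 and 0.14 for both genes. The late quiet unloaded series had its highest values of both genes at number 5. A wave took 9.05% of the variance of the ratio within series (permutation p = 0.16), and the 6 numbers took 12.6% (permutation p = 0.43).

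The receptors of the hormones were far lower than the hormones. Avpr1a, the vasopressin receptor of brain and vessels, had a mean of 2.25 ± 0.79 RPKM in late quiet free-moving animals and 1.26 ± 0.58 RPKM in early free-moving a. Oxtr, the oxytocin receptor, had 1.90 ± 0.32 and 0.99 ± 0.64 RPKM in the same series. In late against early free-moving animals both were higher, by 0.81 ± 0.17 (limma adjusted p = 4.6e-05) and 0.77 ± 0.18 (limma adjusted p = 0.00014). This was opposite to the hormone genes, but 60.5% of all genes were called higher there and the median gene was at 0.43. Neither the receptors nor the genes below were refitted with the length trend removed. With noise in free-moving animals Avpr1a was lower by −0.60 ± 0.20 (limma adjusted p = 0.0088), and Oxtr was at −0.43 ± 0.20 (limma adjusted p = 0.064). There 36.4% of all genes were called lower, and the median gene was at −0.15. Avpr1b, the pituitary receptor, and Avpr2, the kidney receptor, did not reach the level filter, and their highest library was at 0.0312 and 1.47 RPKM.

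The genes that cut and finish peptide hormones, or remove and release them, also differed in the direction opposite to Avp and Oxt, which was the direction of most called genes. Of 7 tested, 6 were called higher in late against early free-moving animals and 0 lower (median 0.97, all genes 0.43), where 60.5% of all genes were called higher. With noise in free-moving animals 6 were called lower and 0 higher (median −0.67, all genes −0.15), where 36.4% of all genes were called lower. Lnpep, which degrades both hormones, was at 1.79 ± 0.17 (limma adjusted p = 1.8e-11) in late against early and −1.34 ± 0.20 (limma adjusted p = 9.2e-07) with noise. Pcsk2, a convertase that cuts precursors, was at 0.97 ± 0.12 (limma adjusted p = 6.3e-09) and −0.67 ± 0.14 (limma adjusted p = 0.00017). Pcsk1, another convertase, was at 1.26 ± 0.17 (limma adjusted p = 3.1e-08) in late against early, and Cd38, needed for oxytocin release, was at −0.78 ± 0.18 (limma adjusted p = 0.00031) with noise.

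Of 4 transcription factors that specify these neurons in development, all were called higher in late against early free-moving animals (median 0.94, all genes 0.43), a direction in which 60.5% of all genes were called. With noise in free-moving animals 3 were called lower (median −0.60, all genes −0.15), against 36.4% of all genes. Arnt2 was at 1.51 ± 0.17 (limma adjusted p = 4.0e-10) and −1.02 ± 0.20 (limma adjusted p = 3.9e-05), Pou3f2 at 0.94 ± 0.11 (limma adjusted p = 1.9e-09) and −0.64 ± 0.13 (limma adjusted p = 9.0e-05), and Sim1 at 0.94 ± 0.14 (limma adjusted p = 8.4e-08) and −0.55 ± 0.16 (limma adjusted p = 0.0034). Their summed level was 55.0 to 74.2 RPKM in late quiet free-moving libraries, where Avp and Oxt were lowest, and 22.3 to 49.2 RPKM in early free-moving libraries.

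Among 6 tested genes of the response to osmotic load, 2 moved like the hormone genes. Caprin2, an RNA-binding protein known to act on vasopressin messenger RNA, was higher with noise in free-moving animals by 1.02 ± 0.12 (limma adjusted p = 2.1e-08), higher with late quiet unloading by 0.69 ± 0.12 (limma adjusted p = 0.00025) and lower in late against early free-moving animals by −0.72 ± 0.11 (limma adjusted p = 1.5e-07). Trpv4, an osmosensitive channel, was at 0.58 ± 0.15 (limma adjusted p = 0.00086), 0.46 ± 0.15 (limma adjusted p = 0.030) and −0.66 ± 0.13 (limma adjusted p = 1.0e-05) in these comparisons. Nfat5 and Rasd1 went the other way with noise, at −0.75 ± 0.20 (limma adjusted p = 0.0018) and −0.92 ± 0.17 (limma adjusted p = 2.7e-05). With noise in free-moving animals 2 of the 6 were called higher and 2 lower (median −0.02, all genes −0.15), where 21.2% and 36.4% of all genes were, so these counts are near the background.

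Of 11 peptides and enzymes made in or beside these neurons, 4 were called higher with noise in free-moving animals and 1 lower (median 0.31, all genes −0.15), where 21.2% and 36.4% of all genes were. In late against early free-moving animals 3 were called higher and 5 lower (median −0.24, all genes 0.43), where 60.5% and 18% of all genes were. Sst, the somatostatin gene, was at 0.88 ± 0.12 (limma adjusted p = 2.0e-07) with noise and −1.02 ± 0.10 (limma adjusted p = 4.9e-11) in late against early. Gal, the galanin gene, was at 0.58 ± 0.13 (limma adjusted p = 0.00040) and −0.54 ± 0.12 (limma adjusted p = 6.7e-05). Pdyn, whose product dynorphin is stored with vasopressin, was at 0.13 ± 0.19 (limma adjusted p = 0.58) and 0.04 ± 0.17 (limma adjusted p = 0.84). Nos1, the neuronal nitric oxide synthase, was at −0.78 ± 0.23 (limma adjusted p = 0.0035) and 1.51 ± 0.20 (limma adjusted p = 8.9e-09). Crh, which drives the pituitary together with vasopressin, was higher with late quiet unloading by 0.54 ± 0.17 (limma adjusted p = 0.032), the sole one of the 11 called there. In that comparison 9.38% of all genes were called higher, so 1 of 11 is near the background.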

How the data were processed

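The deposited table holds RPKM values for 21558 genes in 48 libraries; per the submitters' processing notes, CASAVA 1.8 and HISAT were used by the authors. The HISAT version and genome build were not given in the sources used here. RPKM values are not counts, and depth was recovered from steps between low values: 62.3% to 68.2% were whole within 0.02 reads, against 4% by chance. Series came from the labels. limma 3.58.1 (R 4.3.3) was fitted to log2(RPKM + 0.5) over the 13685 genes with a mean of at least 0.5 RPKM, with series and title number as terms (35 residual degrees of freedom) and Benjamini-Hochberg adjustment over genes within each of 12 comparisons, called below 0.05. Fold changes are on that scale. Ratios were tested two-sided by permutation (SciPy 1.17.1). Named were both genes, the 4 receptors, up to 3 called members per list and comparison, and the 5 most alike genes (not all are reported here), and a few others chosen for contrast after their values were seen. The limma step was tested on simulated data. Alternatives were another pseudocount, no filter, quantile normalization, mitochondrial genes removed or as covariate, array weights, no number term, only the series compared, single numbers left out, early series pairs and, chosen after seeing the data, 2 libraries left out and a length trend removed. The members and lists were chosen with earlier results of these data known.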

Additional observations from a re-analysis of the deposited data

Results flagged for a closer look

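In early free-moving a, Avp was 7580.25 RPKM in number 1, far from the next library at 3699 RPKM, and in early unloaded b it was 6294 RPKM in number 13, far from the next at 4212 RPKM. The ratio of Avp to Oxt was 2.21 in number 13 of early free-moving b, where the next library had 1.85, and 2.63 in number 13 of early unloaded b, where the next had 1.94. In each of these 4 cases the gap to the nearest library took up a larger share of the range of the series than Dixon's test allows for 6 libraries. Of 24 groups looked at, chance alone sets apart about 5%, and 2 of the 4 cases belong to the same library. The unloading effect on Oxt differed between late quiet and early animals by 0.56 log2 units (limma adjusted p = 0.048), which is close to the threshold and did not hold under most alternatives.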

How the results depend on the processing

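The noise results in free-moving animals, noise with unloading against neither and both late against early results kept their direction and their call for Avp and Oxt in all 17 alternatives, with Avp between 1.03 and 2.05, 1.69 and 2.67, −2.30 and −1.25, and −1.82 and −1.05 in that order, and Oxt between 0.53 and 1.57, 0.68 and 1.65, −1.75 and −0.71, and −1.25 and −0.65. With the title number term left out (no replicate block), Oxt by period, at 0.56 (limma adjusted p = 0.096), was the sole call lost. The ratio paired by title number kept every call, each with an adjusted exact sign-flip p of 0.042. Each of these calls has 1 sign in 6 of 6 numbers and so the smallest p that 6 numbers allow, 0.031. The pairing therefore repeats the sign counts and cannot show a weaker call. Deviations of libraries with 1 number had a median r of 0.0802 (168 pairs), against −0.0171 (840 other pairs). The mitochondrial covariate ended the noise calls in unloaded animals (1.40 and 0.91), gave 0.37 for Oxt by period, and reversed Oxt with early unloading (0.011) and Avp in unloaded b less a (−0.21). Quantile normalization gave 0.58 for Avp with early unloading, now called, and −0.80 for Avp in unloaded b less a. Removing and rescaling mitochondrial genes made Oxt in unloaded b less a a call (0.58). Array weights, which stopped before converging, gave calls for Avp with early unloading (0.42), Oxt with late quiet unloading (0.34), unloading by noise (−0.70 and −0.69), free-moving b less a (0.69 and 0.58) and Oxt in unloaded b less a (0.76), and turned Oxt with late noise unloading to −0.35. Fitting only the series compared made Oxt with late quiet unloading a call (0.43). No filter left Oxt by period at 0.56 (limma adjusted p = 0.077). Early pairs gave −0.57 and 0.31 for Oxt and 0.22 and 0.10 for the ratio. Without early free-moving a number 1, Avp with early unloading was 0.41 and Oxt by period 0.50; without early unloaded a number 9 the latter was 0.57. With the length trend removed, Avp with early unloading was 0.39 and with late quiet unloading 0.44, unloading by noise was 0.23 and 0.12, Oxt by period 0.060 and Avp in unloaded b less a −0.32. Leaving out single numbers gave ranges of 0.26 to 0.37 for Avp with early unloading, 0.74 to 0.93 for Avp with late quiet unloading, 0.48 to 0.65 for Oxt by period, −0.30 to 0.0049 for Avp unloading by noise, −0.18 to 0.16 for Avp and 0.43 to 0.66 for Oxt in unloaded b less a (called without number 1), and −0.095 to 0.016 for the ratio by period. The cause of these changes was not tested. Counting error is at most 1.06% of an Avp or Oxt value, and precision is limited by the 6 pools per series.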
